A study of Mus musculus with 6 samples.

Results

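The 70 splicing factor and hnRNP genes described here are the protein-coding mouse genes whose symbols begin with Sf3a or Sf3b, Snrp, Srsf, Prpf, Hnrnp or Pcbp (for Srsf, Prpf and Pcbp followed by a digit), of 21887 protein-coding genes on the main chromosomes. They were chosen by name alone and fall into 6 families of 9 Sf3, 12 Snrp, 13 Prpf, 11 Srsf, 21 Hnrnp and 4 Pcbp genes. Hnrnpa1l2-ps2 is named like a pseudogene but is listed as protein-coding, and was kept. Chromatin immunoprecipitation and sequencing was used to map H3K4me3, a histone mark of active and poised promoters, in cochlear Lgr5-positive progenitor cells that had been exposed to neomycin for 12 h (2 libraries) or left untreated (2 libraries). Neomycin, an aminoglycoside, is toxic to sensory hair cells, so the comparison is between progenitors of cochleae that were and were not exposed to an ototoxic drug. In both groups the cochleae came from C57BL/6 Lgr5-EGFP-creERT2 mice of either sex, taken at postnatal day 0 to 3. They were cultured in DMEM/F12 with B27, N2, IGF-1, heparin sulfate, bFGF and EGF. Cells were sorted by green fluorescence, which is driven from the Lgr5 locus and does not by itself exclude other cell types. Neither the number of animals nor separate cultures for the replicates are stated, so p-values measure only the spread between these libraries, which may be technical. H3K4me2 appears in the deposited names of the untreated lists, but the labels name H3K4me3 and 1 antibody throughout, and were followed. To that extent the mark of the untreated libraries is uncertain.

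Splicing removes introns from the primary transcript. It is carried out by the spliceosome, which assembles anew on each intron from small nuclear ribonucleoproteins. The Snrp proteins form the Sm ring and other protein parts of these particles, the Sf3a and Sf3b proteins let the U2 particle hold the branch point, and several Prpf proteins belong to the tri-snRNP that brings in the catalytic centre. Srsf proteins bind exons and usually favour their inclusion, while hnRNP and poly(C)-binding proteins coat nascent RNA and often act in the other sense. Mature hair cells need their own splicing programme, in which the regulator Srrm4 is known from a deaf mouse mutant.

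The files are lists of peaks called in each library, and a gene was counted as marked where a peak overlapped the 1 kb either side of its start site. The lists held 14203 and 11545 peaks in the neomycin libraries (replicates 1 and 2) and 15938 and 10520 in the untreated libraries. They carry no read totals, so depth is unknown. Peak length was bounded from below by a different value in each list, since the shortest peaks on the main chromosomes were 48 and 110 bp with neomycin and 187 and 234 bp without. A length in bp is therefore not comparable between libraries as it stands, and lengths are also given as percentiles among all promoters marked in the same library. All of 10 supporting and progenitor cell markers had a peak in at least 1 library, and 9 of them in every library, while 0 of 4 blood and macrophage markers were marked. Markers of other cochlear cells were found as well: 4 of 8 for hair cells and none in every library, 4 of 5 for spiral ganglion neurons with Pou4f1 in every library, and 3 of 4 for glia with Sox10 in every library.

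Most splicing genes carried the mark. Of the 70, 61 (87.1%) had a promoter peak in at least 1 library, against 51.7% of all protein-coding genes, and 20 (28.6%) in all 4, where 14.8% of all protein-coding genes were marked in all 4. In single libraries 40 of the 70 (57.1%, 95% Wilson interval 45.5 to 68.1) had a peak in neomycin replicate 1, and neomycin replicate 2 had 36 (51.4%, 39.95 to 62.8). In the untreated libraries 54 (77.1%, 66.0 to 85.4) and 45 (64.3%, 52.6 to 74.5) were marked. Over all genes the shares were 32.1% and 31% with neomycin and 44% and 33.7% without, so both sets had their highest share in untreated replicate 1, which has the longest list. The intervals cover counting error only, and genes are not replicates of a condition. With lists cut to equal length the shares of the 70 were 51.4% and 50.0% with neomycin and 64.3% and 64.3% without. Over all genes they were then 25.7% and 29.2% with neomycin and 34.4% and 33.7% without, so these too were lower with neomycin.

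**Figure D1:**
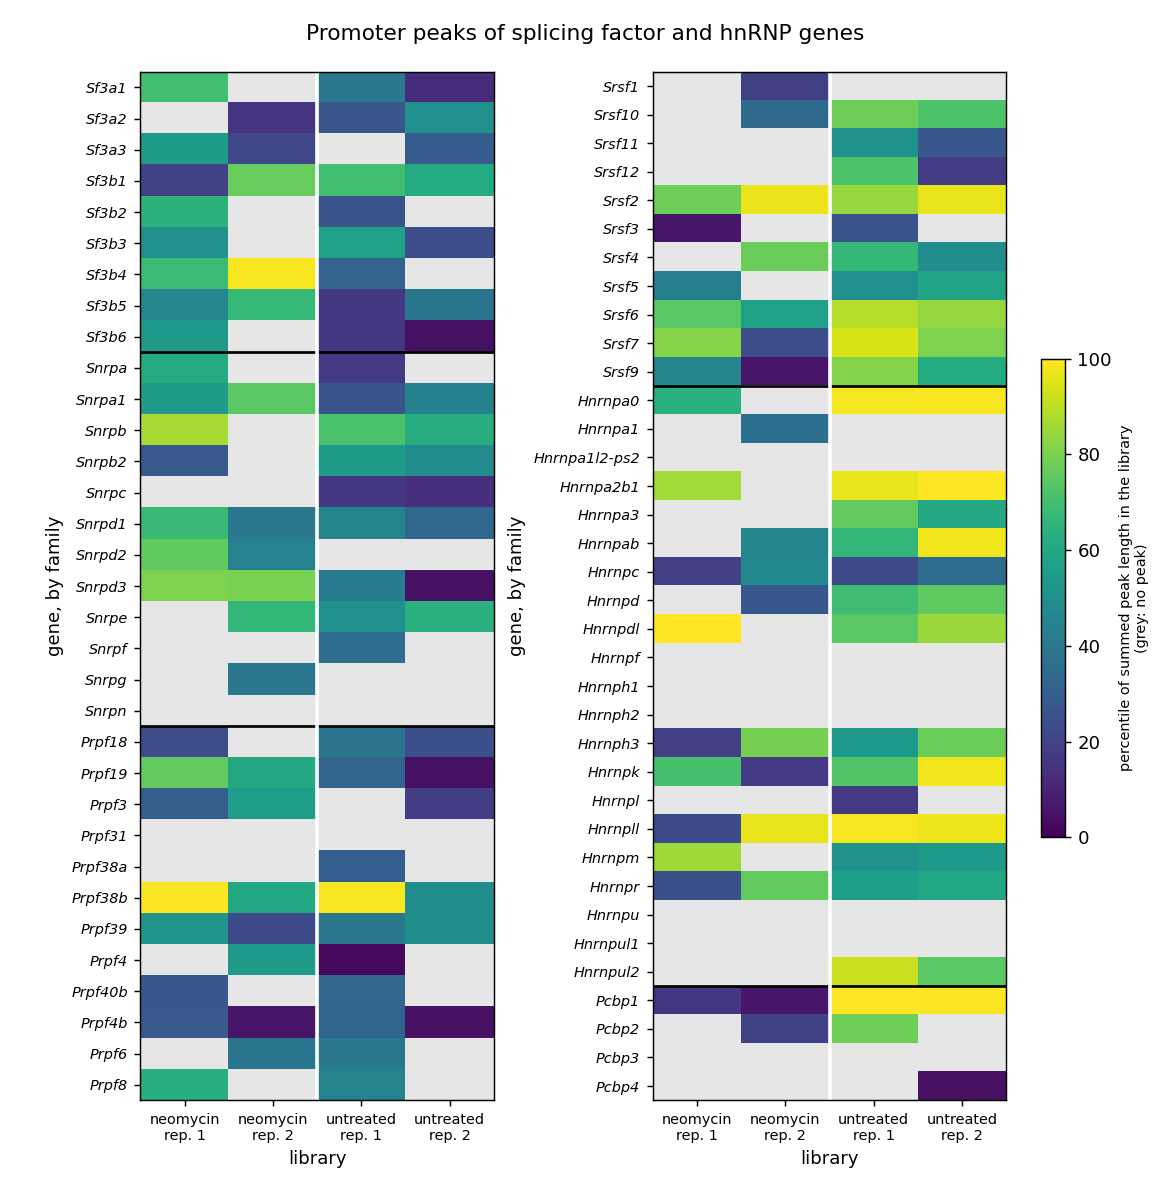
Each row is a gene, 1 of the 70 not shown, and each column a library, with neomycin left of untreated; colour gives the percentile of the summed peak length among promoters marked in that library, and grey marks a promoter without a peak. The long marks of several Hnrnp and Srsf genes in both untreated libraries, and the 9 rows without any peak, can be read off the grid.

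A peak in both neomycin libraries and neither untreated library (neomycin-only) was found at 1 gene, and the converse (untreated-only) at 5 genes. The neomycin-only gene was Snrpd2, 1 of 70 genes (1.43%) against 1.37% of all genes. The untreated-only genes were Hnrnpa3, Hnrnpul2, Snrpc, Srsf11 and Srsf12, 7.14% of the 70 against 4.61% of all genes. Markers of mesenchyme moved in the same direction: 0 of 7 had a peak in either neomycin library, against 4 (57.1%) and 5 (71.4%) in the untreated libraries, where Coch, Prrx2, Sp7 and Twist1 had one in both. Of the neuron markers 1 and 2 of 5 had a peak with neomycin and 4 and 2 without, of the glia markers 1 and 1 of 4 with neomycin and 3 and 2 without, and of the hair cell markers 2 and 1 of 8 with neomycin and 4 and 1 without. The part of these cell types in the untreated-only marks of splicing genes was not tested. Both shares lay near those of all genes, and presence at a single gene was not tested, since 2 libraries a group allow no test that could pass a threshold. The untreated-only count was 16 without neomycin replicate 1, 11 without neomycin replicate 2, 6 without untreated replicate 1 and 8 without untreated replicate 2, where 10.8%, 9.92%, 5.63% and 8.65% of all genes were untreated-only. The neomycin-only count was 4, 1, 2 and 3 in the same order, where 3.1%, 3.15%, 5.52% and 2.09% of all genes were neomycin-only. Leaving out a library loosens the rule, so such counts cannot fall in any gene set. Stricter calls shifted the same counts. With lists of equal length 1 gene was neomycin-only (1.75% of all genes), 6 were untreated-only (4.95% of all) and 15 were marked in all 4 libraries (10.2% of all). With peaks of -log10 q of 10 or more, 0 genes were neomycin-only (0.00457% of all), 9 were untreated-only (6.07% of all) and 0 were marked in all 4 (0% of all). At that cut only 0.132% of all genes kept a peak in neomycin replicate 1. Counts that need a peak there could therefore hardly differ from 0. With the window widened to 2.5 kb, 4 genes were untreated-only (4.45% of all) and 28 were marked in all 4 (17.3% of all). Of the 20 genes marked in 3 libraries, 11 lacked only neomycin replicate 2 (6.15% of all genes), 6 only neomycin replicate 1 (5.31%), 2 only untreated replicate 1 (0.717%) and 1 only untreated replicate 2 (4.15%). A further 5 genes were marked in replicate 1 of both groups and in neither replicate 2 (2.59% of all genes).

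**Figure D2:**
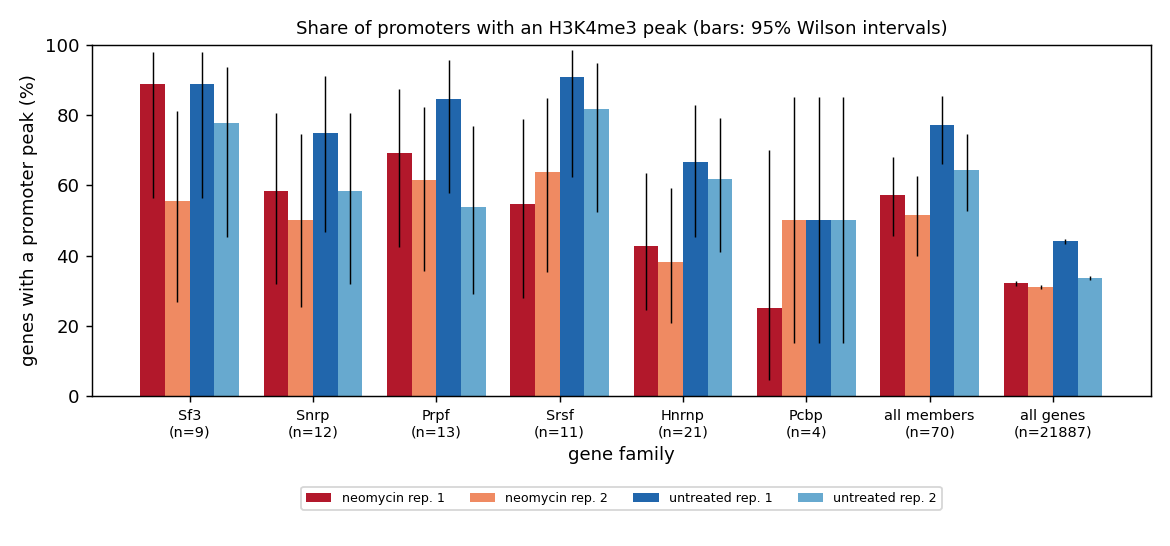
Bars give the percentage of genes with a promoter peak in each library, by family, for all 70 genes and for all protein-coding genes, with 95% Wilson intervals that cover counting error only. For the Srsf family the bars stand at 54.5% and 63.6% with neomycin and at 90.9% and 81.8% without.

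The U2 particle genes of the Sf3 family were all marked somewhere. Sf3b1, the subunit that clamps the branch point, lies on chromosome 1 from 54985169 to 55027501 in mm10. It had 58 and 297 bp of promoter peaks in the neomycin libraries and 585 and 486 bp in the untreated libraries, which is percentiles 19.8 and 76.8 against 69.8 and 61.7. The 2 neomycin libraries thus lay on either side of the untreated ones. Sf3b5, a small subunit of the same complex, had 100 and 255 bp with neomycin and 232 and 343 bp without. It was longer than Sf3b1 in neomycin replicate 1 and shorter in the other 3 libraries. Sf3a1, a subunit that joins the complex to U2, had 151 bp and no peak with neomycin and 379 and 246 bp without. Sf3a1, Sf3b2, Sf3b3 and Sf3b6 lacked a peak in neomycin replicate 2, Sf3b2 in untreated replicate 2 as well. Sf3b4 had its longest mark in neomycin replicate 2, at 626 bp, and no peak in untreated replicate 2. Across the family the neomycin libraries marked 8 and 5 of 9 genes and the untreated libraries 8 and 7.

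The Snrp genes, which encode the Sm ring and particle-specific proteins, held a gene of each one-sided pattern. Snrpd2, an Sm ring protein, lies on chromosome 7 from 19149445 to 19152734 and shares its start region with Qpctl. Its peaks covered 171 and 165 bp in neomycin replicates 1 and 2, against none in either untreated library, where the nearest peaks were 54.5 and 72.6 kb away. Relative to the start, with negative positions outside the gene, the peak of neomycin replicate 1 ran from 468 to 638 bp and that of neomycin replicate 2 from -594 to -430 bp. The 2 peaks that make this gene neomycin-only therefore do not overlap. Snrpc, a protein of the U1 particle, lies on chromosome 17 from 27840028 to 27851968 and had no neomycin peak within 16.4 and 17.1 kb. In the untreated libraries it had 233 and 249 bp, at 103 to 335 and 98 to 346 bp inside the gene. These peaks overlap and rank high by the caller's q, at percentiles 93.4 and 86.7 among the peaks of their lists, but they were short, at percentiles 16.3 and 13.8 of length. The 191 bases outside the gene up to its end are chr17:27839837-27840027 on the plus strand of GRCm38.p6 (mm10), from RefSeq, and are printed 5′ to 3′ in the sense of the gene because the untreated peaks lie just inside it. In this and the other printed stretches capitals mark words searched for on both strands: CCGGAAG, which is the core bound by ETS factors, GGGCGG, which is the GC box, CCAAT, the word of the CCAAT box, TATAAA, the word of the TATA box, and CACGTG, the word of the E-box. Words for Nrf1 and Yy1, given by name alone, were searched for too. The Snrpc stretch holds none of these words, and 7 CpG.
Snrpc: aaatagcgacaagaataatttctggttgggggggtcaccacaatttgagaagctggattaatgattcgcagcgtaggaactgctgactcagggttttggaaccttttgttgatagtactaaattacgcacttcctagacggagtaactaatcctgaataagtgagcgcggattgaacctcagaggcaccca

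Of the other Sm genes, Snrpd1 had 145 and 153 bp with neomycin and 404 and 318 bp without, and Snrpd3 had 188 and 314 bp with neomycin and 383 and 234 bp without. Relative to each library's other promoters, Snrpd3 was long with neomycin, at percentiles 80.7 and 79.9, and short without, at 41.0 and 4.3. Its 234 bp in untreated replicate 2 equal the shortest peak of that list. This start region is shared with Gucd1, and the peaks differed in place. Neomycin replicate 2 and untreated replicate 1 had a single peak upstream of the start, untreated replicate 2 a single peak inside the gene, and neomycin replicate 1 had 1 on each side. Snrpb, another ring protein, had 216 bp and no peak with neomycin and 600 and 490 bp without. Snrpn, a tissue-restricted relative of Snrpb known as an imprinted gene, had no peak at the annotated end of the gene in any library.

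Among the Prpf genes, whose products act from tri-snRNP assembly to the second step of splicing, none was neomycin-only or untreated-only. Prpf8, the scaffold of the catalytic centre, had 134 bp and no peak with neomycin and 402 bp and no peak without, so replicate 1 of each group carried it. Prpf19, the core of a ubiquitin ligase complex of the spliceosome, had 172 and 233 bp with neomycin and 334 and 234 bp without. Prpf31, a tri-snRNP protein, shares its start region with Tfpt and had no peak within 12.1 kb in any library. Prpf38b, a relative of the tri-snRNP-associated Prpf38a, had the longest marks of the family on average over the libraries, with 413 and 233 bp with neomycin and 1389 and 400 bp without. It was at percentiles 99.6 and 60.5 with neomycin and 99.0 and 49.2 without, so replicate 1 was the longer in both groups. Prpf4b, a kinase of the spliceosome, had the shortest marks on average of the 5 family members found in all 4 libraries, with 70 and 110 bp with neomycin and 331 and 234 bp without. Its listed start lies 0.709 kb inside the gene. Around that start the sums were 208 and 337 bp with neomycin and 331 and 234 bp without, so its short neomycin marks depend on the start used.

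The 11 Srsf genes, which encode SR proteins, were all marked in some library. Srsf2 had 178 and 529 bp with neomycin and 756 and 1021 bp without, and was long in every library, at percentiles 78.0 and 97.2 with neomycin and 84.4 and 96.6 without. Srsf7 had 192 and 125 bp with neomycin and 1007 and 654 bp without. Srsf9 had 99 and 110 bp with neomycin and 710 and 485 bp without, and its neomycin percentiles of 45.7 and 5.9 lay below its untreated percentiles of 81.4 and 61.5. Srsf3 had 48 bp and no peak with neomycin and 286 bp and no peak without. Srsf6 had 168 and 222 bp with neomycin and 838 and 703 bp without, with percentiles of 74.5 and 57.3 against 88.7 and 84.2. In Srsf6 and Srsf9, then, both neomycin libraries ranked below both untreated libraries, while the order of Srsf2 and Srsf7 was mixed.

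The 2 untreated-only SR genes were Srsf11 and Srsf12. Srsf11, on chromosome 3 from 158010915 to 158036667, shares its start region with Lrrc40 and had no promoter peak with neomycin and 438 and 293 bp without. Its nearest neomycin peaks were 4.69 and 88.8 kb away. The nearer one lay at a second start listed for the gene, so Srsf11 was no longer untreated-only when every listed start was counted. Srsf12, a divergent SR protein, lies on chromosome 4 from 33208991 to 33233343 and had no peak with neomycin within 19.5 and 38.4 kb, against 608 and 260 bp without. Its untreated peaks lay 88 to 695 and 352 to 611 bp inside the gene and overlap.

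The Hnrnp family held several of the longest untreated marks and also 6 of the 9 genes without a peak. Hnrnpa2b1 shares its start region with Cbx3, which is transcribed away from it, and had 211 bp and no peak with neomycin and 1100 and 1855 bp without. Hnrnpa2b1 was at percentile 85.97 in neomycin replicate 1 and at percentiles 96.3 and 99.9 in the untreated libraries, and 1855 bp was the longest sum of all 70 genes in untreated replicate 2. Hnrnpa0, an intronless relative, had 135 bp and no peak with neomycin and 1335 and 1340 bp without. Hnrnpk, a poly(C)-binding hnRNP, had 156 and 116 bp with neomycin and 611 and 1144 bp without. Hnrnpll, a splicing regulator known from lymphocytes, had 62 and 502 bp with neomycin and 1335 and 1099 bp without, and its 2 neomycin libraries lay far apart, at percentiles 22.4 and 96.5. Hnrnpc, which binds uridine tracts, was at percentiles 19.0 and 46.8 with neomycin and 22.3 and 35.3 without, with 57 and 173 bp with neomycin and 265 and 325 bp without. Hnrnpa1, one of the most abundant hnRNPs, had a peak of 146 bp in neomycin replicate 2 and none in the other 3 libraries. A missing peak at such a gene is read here as not called, and not as absence of the mark.

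Hnrnpa3 and Hnrnpul2 were the untreated-only hnRNP genes. Hnrnpa3 lies on chromosome 2 from 75659105 to 75669407 and had no neomycin peak within 45.2 and 173 kb, against 640 and 475 bp in the untreated libraries. The untreated peaks began 224 and 157 bp inside the gene, and overlapped. Hnrnpul2, on chromosome 19 from 8819401 to 8834143, had no neomycin peak in the window and 914 and 584 bp without. Its neomycin peaks lay just outside, 1.58 and 1.18 kb from the start, within or beside the stretch that the untreated peaks covered, so Hnrnpul2 was not untreated-only with a window of 2.5 kb. Hnrnpul2 shares its start region with Ttc9c, and which of its ends is the start was not given by the promoter table. For Hnrnpa3, where no such doubt applies, the 96 bases outside the gene up to its end, chr2:75659009-75659104 on the plus strand, hold 1 CCAAT word, read on the other strand, and 17 CpG. No peak covered any of them.
Hnrnpa3: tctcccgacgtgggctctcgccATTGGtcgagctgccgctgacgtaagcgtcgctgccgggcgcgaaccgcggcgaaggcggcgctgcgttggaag

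**Figure D3:**
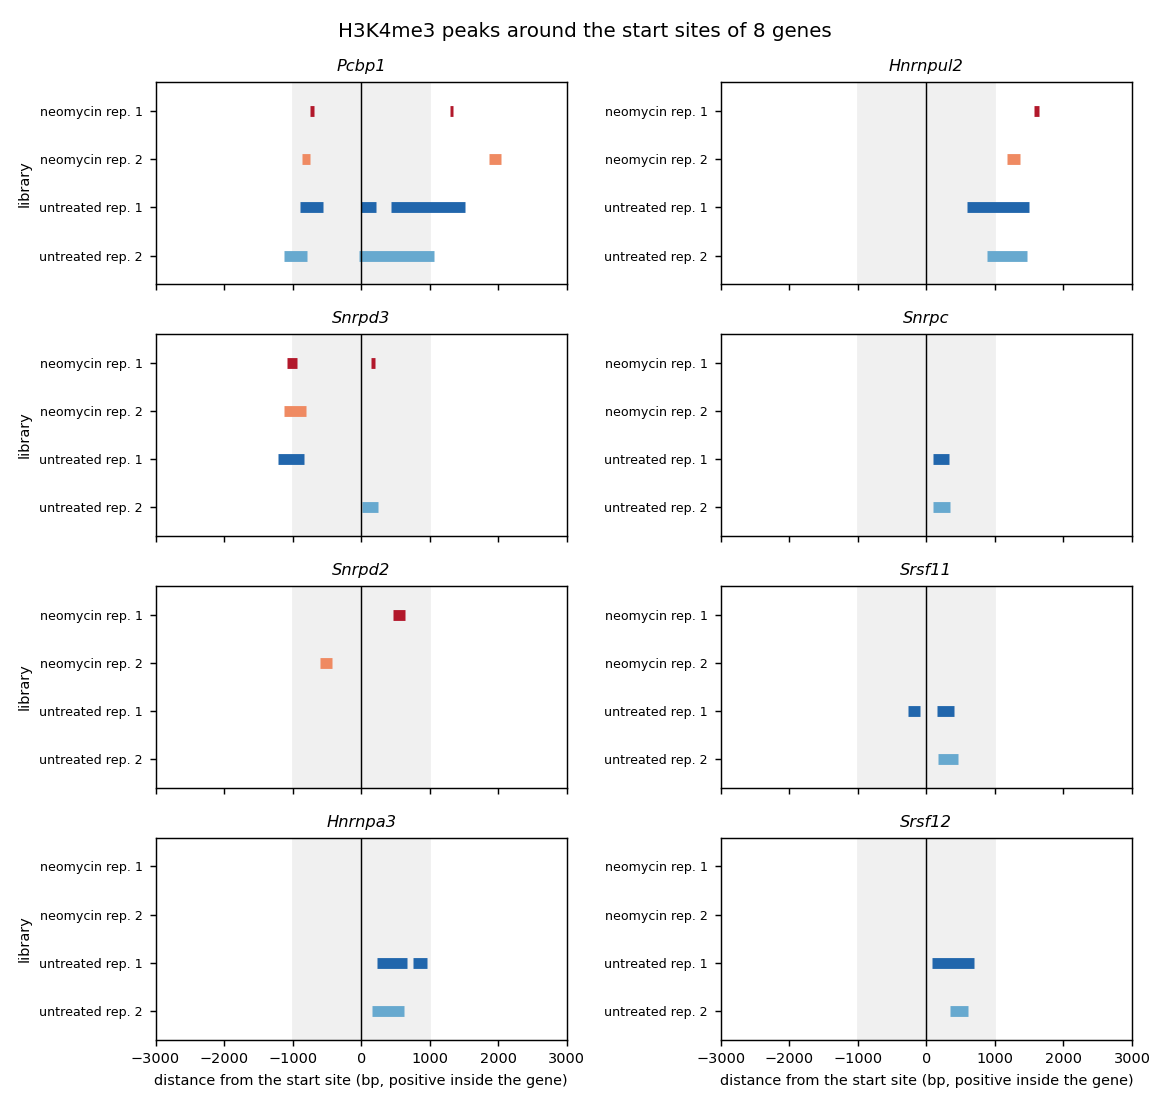
Horizontal bars are peaks within 3 kb of the start sites of 8 genes, by library, with the counted window of 1 kb either side shaded. The untreated peaks of Hnrnpa3, Snrpc, Srsf11 and Srsf12 overlap within each gene, while the 2 neomycin peaks of Snrpd2 lie on either side of the start.

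Of the poly(C)-binding proteins, Pcbp1 had the largest difference in length among the 20 genes marked in all 4 libraries. This intronless gene lies on chromosome 6 from 86524480 to 86526189. Its promoter peaks held 53 and 110 bp with neomycin and 1650 and 1421 bp in untreated cells. Both neomycin libraries were near the bottom of their lists, at percentiles 16.0 and 5.9, and both untreated libraries near the top, at 99.8 and 99.3. Fewer cells with the mark and a weaker mark per cell cannot be told apart in such libraries. The peaks also differed in place. The neomycin peaks in the window lay upstream, from -746 to -694 bp and from -863 to -754 bp of the start, and none touched the start. The untreated peaks included an upstream peak too, from -887 to -558 bp in untreated replicate 1 and from -1125 to -797 bp in untreated replicate 2, and in addition covered the start and the first part of the gene, from 8 bp outside to 222 bp inside and from 431 to 1519 bp in untreated replicate 1, and from 28 bp outside to 1063 bp inside in untreated replicate 2. Each neomycin library had a further short peak inside or beyond the gene, at 1292 to 1339 and at 1863 to 2041 bp from the start, outside the counted window, and that of neomycin replicate 1 lay within a peak of untreated replicate 1. Pcbp2, its close relative, had no peak and 120 bp with neomycin and 662 bp and no peak without.

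The 250 bases before the start of Pcbp1, chr6:86526190-86526439 on the minus strand, are given because they lie between the peaks upstream of the gene, which differed in position between libraries, and the start, which untreated peaks alone covered. They hold 1 ETS core, read on the other strand, 1 E-box and 22 CpG. Neomycin peaks covered 0 and 0 of these bases, and untreated peaks 8 and 28.
Pcbp1: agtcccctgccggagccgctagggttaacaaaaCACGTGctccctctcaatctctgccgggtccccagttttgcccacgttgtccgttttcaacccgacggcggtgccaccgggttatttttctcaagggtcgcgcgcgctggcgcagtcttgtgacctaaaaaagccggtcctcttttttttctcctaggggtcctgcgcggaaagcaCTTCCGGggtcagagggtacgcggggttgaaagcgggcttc

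In the comparison of length over promoters marked in all 4 libraries, no splicing gene passed the threshold. For each of 3231 promoters the log2 summed length, less the median of its library, was tested with limma at a Benjamini-Hochberg adjusted p of 0.05. Of the 20 splicing genes, 0 were longer and 0 shorter with neomycin, and 0% of all 3231 were called in either direction. At an unadjusted p under 0.05, 1 splicing gene was longer (3.71% of all) and 1 shorter (5.76% of all). Pcbp1 was the shorter one, with a log2 difference of -2.75 (SE 0.62, limma adjusted p = 0.0552). No lower adjusted p was found among all 3231 promoters, but Pcbp1 shared this value with at least 1 promoter outside the list. Its size held when 1 library was left out (-2.83 to -2.68). Those fits leave 1 library in a group, so their spread comes from the other group alone and no p-value is given. The limma adjusted p was 0.361 when only bases inside the window counted and 0.436 with a window of 2.5 kb, where the log2 difference was -1.6. With the 500 bp window Pcbp1 had no neomycin peak and was untreated-only.

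Snrpd3 was the longer one, with a log2 difference of 1.27 (SE 0.62, limma adjusted p = 0.502). Among the other extremes of the families were Prpf19 (1.09, SE 0.62, limma adjusted p = 0.589), Sf3b5 (0.75) and Sf3b1 (-0.45), Snrpd1 (0.31), Srsf2 (0.05) and Srsf9 (-0.92, SE 0.63, limma adjusted p = 0.702), and Hnrnpc (0.01) and Hnrnpll (-1.21, SE 0.64, limma adjusted p = 0.561), each as a log2 difference. None of these passed the threshold. Snrpd3 and Prpf19 were at the shortest peak length of untreated replicate 2, 234 bp. Pcbp1 and Srsf9 were at that of neomycin replicate 2, 110 bp. Those lists could not have shown shorter marks there, so these differences rest in part on values at the lower bound. Without the centring, the neomycin marks were shorter at every one of the 20 genes, with a median of -1.76 against -1.57 over all promoters. There 6 were called, where 27.6% of all promoters were, and all positive differences named here turn negative. The centred median of the 20 was -0.18 against 0.00346 over all 3231, and it was 0.0236 without neomycin replicate 1.

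**Figure D4:**
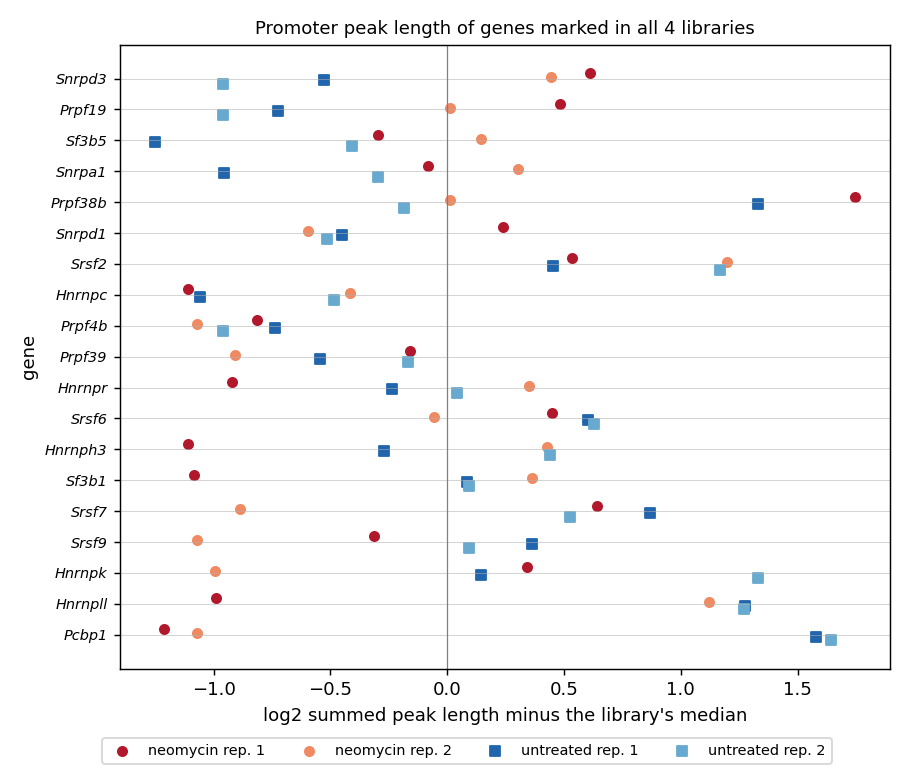
Points give the log2 summed peak length minus the library's median for genes marked in all 4 libraries, 1 of the 20 not shown, circles for neomycin and squares for untreated, ordered by the difference. Both neomycin points lie below both untreated points for Hnrnpll, Pcbp1, Srsf6 and Srsf9, and above them for Prpf19, Sf3b5, Snrpa1 and Snrpd3.

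On this centred scale both neomycin libraries lay below both untreated ones at 4 of the 20 genes, Hnrnpll, Pcbp1, Srsf6 and Srsf9, where 21% of all promoters did so. They lay above both at 4 others, Prpf19, Sf3b5, Snrpa1 and Snrpd3, where 18.8% of all promoters did so. The shares are near those of all promoters. In bp, both neomycin libraries were shorter at 16 of the 20 and at 80.2% of all promoters.

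Families also differed in length within a library. In untreated replicates 1 and 2 the median length percentile was 29.1 and 29.1 for Sf3 genes, 41.0 and 43.9 for Snrp genes and 38.6 and 24.6 for Prpf genes. It was 75.2 and 61.5 for Srsf genes and 71.1 and 77.7 for Hnrnp genes. With neomycin, replicates 1 and 2 gave 54.1 and 66.9 for Sf3, 67.3 and 55.4 for Snrp and 30.2 and 54.6 for Prpf, against 60.1 and 34.5 for Srsf and 63.5 and 46.2 for Hnrnp. In both untreated libraries the 2 regulator families thus had longer marks than the 3 families of spliceosome parts, while in the neomycin libraries the families overlapped in no fixed order. These are medians of 5 to 14 marked genes each, from different subsets of a family in each library, and are a description. Over the marked splicing genes (40 and 36 with neomycin, 54 and 45 without) the median percentile was 54.8 and 46.2 with neomycin and 51.1 and 50.1 without, close to the middle of each list.

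**Figure D5:**
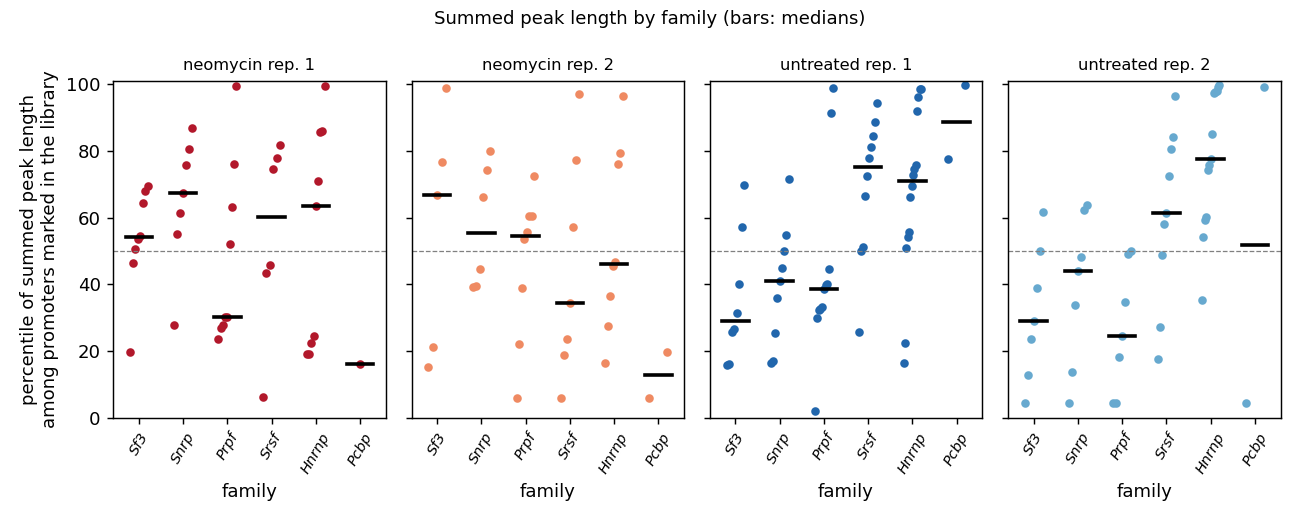
Each point is a gene marked in the library, placed by the percentile of its summed peak length among all promoters marked there; bars are family medians and the dashed line is the 50th percentile. Srsf and Hnrnp medians lie above the line in both untreated libraries, while those of Sf3, Snrp and Prpf lie below it.

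No promoter peak was found in any library for 9 splicing genes, namely Hnrnpa1l2-ps2, Hnrnpf, Hnrnph1, Hnrnph2, Hnrnpu, Hnrnpul1, Pcbp3, Prpf31 and Snrpn. They are 12.9% of the 70, where 48.3% of all genes had none. For 5 of them the annotated end of the gene was not the start that carried the mark. Hnrnpu, a large scaffold protein of the nucleus, has its listed start 1.08 kb inside the gene, where the peaks summed to 109 and 139 bp with neomycin and 996 and 779 bp without. Hnrnph1 had 96 and 290 bp with neomycin and 596 and 792 bp without at a start 2.98 kb inside. Hnrnpul1 had 148 and 238 bp with neomycin and 465 and 626 bp without at a start 1.51 kb inside. Hnrnpf had a mark in each library, though at different starts. At the start of Snrpn 445 kb inside the gene there was no neomycin peak, against 781 and 646 bp in the untreated libraries.

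The same held for Srsf1, the SR protein also known as ASF, which was marked at its annotated end in neomycin replicate 2 alone, with 119 bp. At its listed start 0.874 kb inside, it had 63 and 265 bp with neomycin and 694 and 474 bp without. With every listed start counted, 27 of the 70 genes (38.6%) were marked in all 4 libraries, where 16.7% of all genes were, and 4 had no peak, namely Hnrnpa1l2-ps2, Hnrnph2, Pcbp3 and Prpf31. Snrpd2 was then still the neomycin-only gene (1.4% of all genes), and the 5 untreated-only genes (4.66% of all genes) were Hnrnpa3, Hnrnpul2, Snrpc, Snrpn and Srsf12. Start sites within 1 kb of another gene's start were found for 20 of the 70 (28.6%), where 11.6% of all genes have one. Peaks at these cannot be assigned to one gene.

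At 60 splicing genes with a listed promoter, the 250 bases before the start held a median of 19 CpG (2 to 46), against 10 over 17492 genes and 19 over the 2591 of these that were marked in all 4 libraries. These 250 bases are counted from the listed start, so they hold more than the printed stretches of Snrpc (1 ETS core within them) and Hnrnpa3 (3 GC boxes, 2 CCAAT words, 1 E-box), whose listed starts lie 59 and 154 bp inside the gene. The ETS core CCGGAAG was in 19 of the 60 (31.7%), against 9.15% of all promoters and 15.9% of those marked in all 4 libraries. It was in 6 of 7 Sf3 promoters and in 2 of 19 Hnrnp promoters. CCAAT was in 28 of the 60 (46.7%), of which 13 were Hnrnp genes, against 36.5% of all and 34.1% of those marked in all 4 libraries. The GC box was in 39 (65.0%), against 42.7% of all but 68.7% of those marked in all 4 libraries. The E-box was in 6 (10.0%, against 6.65% and 8.65%) and TATAAA in 6 (10.0%, against 12.4% and 5.25%), while longer words for Nrf1 (in 1.06% of all) and Yy1 (in 0.354% of all) were in 0. A match is only a word in this stretch and is no evidence of binding. Peaks seldom lay on these bases: 2 of 33 and 6 of 31 marked splicing promoters had one with neomycin, and 9 of 46 and 9 of 37 without. Of all marked promoters, 17.1% and 20.6% had one with neomycin and 31.2% and 30.7% without. Median summit positions of these marked splicing genes, counted into the gene, were 353 and 142 bp with neomycin against 276 and 305 bp in untreated cells. Over all marked genes with a strand they were 269 and 225 bp with neomycin and 244 and 272 bp without.

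Of 99 other spliceosome parts and splicing regulators, 86 (86.9%) carried the mark somewhere, against 51.7% of all genes, and 34 (34.3%) in all 4 libraries, against 14.8%. The share was 61.6% in each neomycin library and 75.8% and 62.6% in the untreated libraries, values like those of the 70. The exon junction protein Rbm8a was neomycin-only, with 48 and 153 bp of peaks with neomycin. The single neomycin-only gene is 1.01% of the 99 and the 5 untreated-only genes are 5.05%, near the 1.37% and 4.61% of all genes. Untreated-only were Aqr, a helicase of the spliceosome, Lsm8, of the ring on U6 RNA, the neuronal regulator Nova2, Rbm22 and Rbm5. The promoter table gave no strand for Rbm8a or Rbm22. Their gene ends were thus picked by the same peaks that make them one-sided. The 48 bp at Rbm8a equal the shortest peak of neomycin replicate 1. Rbm5, a regulator of exon choice, had no peak with neomycin and 283 and 556 bp without. Of regulators tied to the inner ear, Esrp1, an epithelial splicing factor, was marked in all 4 libraries with 70 and 110 bp with neomycin and 253 and 643 bp without. Rbm24, a hair cell splicing factor, had no peak and 110 bp with neomycin and 911 bp and no peak without. Srrm3 and Srrm4, which drive neuronal and hair cell exons, had no promoter peak in any library. Limma called 0 of the 34 marked in all 4 libraries, as it called 0% of all promoters. At an unadjusted p under 0.05, 2 were longer and 1 shorter with neomycin, where 3.71% and 5.76% of all promoters were.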

How the data were processed

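Peaks of the 4 H3K4me3 libraries were analysed; the 2 input libraries, 1 a group, were not used here. CASAVA 1.4, Bowtie2, MACS2 and deepTools are listed, with the mm10 build, in the submitters' processing notes, without roles or settings. According to their column names, and so per the file headers, the deposited lists give each peak's length in bp, pileup signal at the summit, fold enrichment (a ratio over local background) and -log10 p-value and q-value, which are the authors' values for single peaks and were used only within a list. Each library has a list of its own.

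Start sites came from RefSeq for GRCm38.p6. The main start was the gene's 5′ end, with the strand taken from a promoter table that held 17492 of the 21887 genes. For the other genes, 10 splicing genes among them, including Hnrnpll, Hnrnpul2, Sf3b4, Sf3b5, Snrpb and Snrpd1, the gene end with peaks in more libraries was used. Ties went to the end with more peak bases, then to the lower coordinate. This choice pools the 4 libraries without regard to treatment, but it uses the same peaks that are then described. A one-sided call at such a gene, as at Hnrnpul2, thus rests on an end picked by the peaks of that group. A promoter was marked by 1 bp of overlap with 1 kb either side, and its length is the sum of the whole peaks that touch the window.

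Lengths were compared with limma 3.58.1 in R 4.3.3, tested on simulated data as was the peak assignment. Python 3.11.15 with scipy 1.17.1, numpy 2.4.6, matplotlib 3.10.9 and pandas 2.3.3 did the rest. The genes, lists and named genes were chosen with earlier results of these data known. Named with values were genes marked in 1 group only, family extremes of length and of its difference among genes marked in all 4 libraries, unmarked genes and 19 key genes. Others are named where a pattern involves them, and 1 gene that the rule selects is counted but not reported here. Alternatives covered the window, overlap, caller threshold, list length, start sites, centring, counted bases, replicate block and leaving out each library.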

Additional observations from a re-analysis of the deposited data

How the results depend on the processing

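The count of 20 splicing genes marked in all 4 libraries was 11 with a 500 bp window (10.2% of all genes), 11 with 100 bp of overlap (8.86%) and 0 where -log10 q had to reach 10 (0%), and 21 to 31 when 1 library was left out (15.5 to 20.9%), highest without neomycin replicate 2. The untreated-only count of 5 was 9 with 100 bp of overlap (7.59% of all genes) and 9 at that -log10 q (where 6.07% of all genes were), and 6 to 16 with 1 library left out; the neomycin-only count of 1 was 0 at that -log10 q and 1 to 4 with 1 library left out. The marked share of the 70 genes at that -log10 q was 0% and 7.14% in neomycin and 47.1% and 18.6% in untreated libraries. Over all genes it was 0.132% and 1.02% in neomycin and 22.9% and 8.58% in untreated libraries. With equal lists untreated replicate 1 gave 64.3% (34.4% of all genes), and with 100 bp of overlap neomycin replicate 1 gave 35.7% (17.1% of all genes). Without centring 6 genes were shorter with neomycin (27.6% of all promoters) and the median log2 difference was -1.76. With 1 library left out, the median was -0.316 to 0.0236. Calls are not counted for these fits, which leave 1 library in a group. Other counts, shares and medians stayed within 1.5 times or within the spread.

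Single log2 differences changed sign as follows. With the 2.5 kb window Hnrnpc was -0.00481, and with only bases inside the window Hnrnpc was -0.0153. Without centring Hnrnpc was -1.56, Prpf19 -0.482, Sf3b5 -0.821, Snrpd1 -1.27, Snrpd3 -0.301 and Srsf2 -1.52. With normal scores of ranks, chosen after seeing the data, Srsf2 was -0.0219 and Pcbp1 -3.86 (limma adjusted p = 0.0871). With 1 library left out, Hnrnpc ranged from -0.338 to 0.355, Sf3b1 from -1.17 to 0.273, Snrpd1 from -0.111 to 0.721 and Srsf2 from -0.302 to 0.411. Hnrnpll passed the threshold without centring (limma adjusted p = 0.031), where 27.6% of all promoters were called shorter. With 1 library left out, its log2 difference ranged from -2.26 to -0.153. The replicate block gave 0 calls, the same median of -0.18 and an adjusted p of 0.168 for Pcbp1 in limma; same-numbered libraries share a number only, and their deviations correlated at -0.0243 over 3231 promoters. The causes were not tested. Depth is unknown, so a promoter without a peak is not shown to lack the mark.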

Other observations

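Gene sets that every cell uses gave similar shares marked in at least 1 library, 84.3% of 51 proteasome genes (by Psm symbol) and 85.5% of 83 ribosomal protein genes of the cytosol. The proteasome genes were marked at 64.7% and 62.7% in neomycin libraries and at 78.4% and 51.0% in untreated libraries, and 19 (37.3%) carried the mark in all 4. For the ribosomal protein genes the shares were 57.8% and 45.8% in neomycin libraries and 73.5% and 54.2% in untreated libraries, and 14 (16.9%) carried the mark in all 4. For the splicing genes the corresponding count was 20 of 70 (28.6%). Over all genes 14.8% carried the mark in all 4, so the ribosomal share lay near that of all genes. More than 1 peak at the promoter was found for 21 of 40 marked splicing genes in neomycin replicate 1 (52.5%), against 36.6% of all marked promoters, and for 12 of 45 in untreated replicate 2 (26.7%), against 16.7%. In neomycin replicate 2 and untreated replicate 1 the shares were 33.3% and 31.5%, against 29.7% and 27.6% of all marked promoters. These shares were not tested.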
